A study of Danio rerio with 2 samples.

Results

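The genes described here are transcription factors that direct the development of T cells in the thymus, chosen by 10 symbols: *tcf7*, *lef1*, *bcl11ba*, *ikzf1*, *myb*, *ets1*, *tox*, *satb1a*, *runx1* and *runx3*. Matched without regard to case, with a capital symbol that lacks a paralog letter also accepted, they gave 11 of the 32520 genes counted, because both *satb1a* (ENSDARG00000057649) and a gene named *SATB1* (ENSDARG00000062621) answer to 1 symbol. Their levels were set side by side in EGFP+ lymphocytes from zebrafish thymus and EGFP+ myeloid cells from melanoma. The thymus fish carried Tg(cd8a:EGFP), in which sequence from upstream of *cd8a* drives EGFP, and their labels give an age of 6 weeks post fertilization, no treatment and the reporter status lck:mCherry+/CD8:EGFP+. The tumor fish carried Tg(cd8a:EGFP) with BRAF V600E and null alleles of p53 and nacre, were also labelled as 6 weeks old, and had received the TGF-β receptor inhibitor SB431542 for 24 h. Their labels name the cells both myeloid cells and CD8 dendritic cells. The study's methods name only Tg(cd8a:EGFP) for the thymus fish, without the *lck* reporter of the labels, and give them another age. They do not name the SB431542 exposure for the RNA-seq. The nacre null tumor line lacks *mitfa*, and in the methods its tumors were made by injecting embryos with a vector that carries an *mitfa* minigene and mCherry. Each population was sequenced as 1 library, so differences have no replicate check, no p-value was computed, and tissue, cell type, genotype and treatment cannot be told apart.

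T cell progenitors that settle in the thymus take on T cell identity in steps, each run by factors that bind DNA. In mice, Notch signals switch on *Tcf7*, which with *Gata3* and *Bcl11b* commits progenitors to the T lineage. *Ikzf1*, *Myb*, *Ets1* and the Runx factors act from the progenitor stage onward, while *Tox*, *Satb1* and *Runx3* shape the later choice between the CD4 and CD8 fates. Several of these factors are also used outside T cells, for instance *Runx1* in blood stem cells and *Ets1* in endothelium and in melanoma.

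The deposited values are raw read counts, with 32975680 reads on genes in the thymus library, against 39446435 in the myeloid library. Counts are given as CPM, the reads of a gene per 1000000 reads on genes, which are not scaled for gene length. Levels are therefore compared between libraries for the same gene, and not between genes. Intervals are 95% intervals that cover counting error only, since there was no replicate. The amplified reads carry no molecular identifiers, so copies of 1 molecule count as separate reads and the intervals can be too narrow. Where a gene had 0 reads, its level can still be as high as 3 reads, or 0.0910 CPM in the thymus library, against 0.0761 CPM for myeloid cells. Of 9 T cell markers, 9 were at 1 CPM or more in the thymus library, where they summed to 878 CPM, and 1 (*cd8a*) in the myeloid library, where they summed to 5.10 CPM and *lck*, *cd8b*, *cd28* and *cd247* had 0 reads. Of 18 genes that mark mononuclear phagocytes, 1 was at 1 CPM or more in the thymus library (sum 44.1 CPM) and 11 in the myeloid library (sum 3686 CPM). These 18 genes came from 10 symbols, of which *mpeg1.1* matched no gene, while *mfap4* and *cmklr1* each matched several. Melanocyte markers were prominent in the myeloid library, with 0 of 11 genes at 1 CPM in the thymus library (sum 1.46 CPM), against 9 of 11 in the myeloid library (sum 24741 CPM), where only *oca2* had 0 reads. The genes listed for thymic epithelium, 6 in number, summed to 18.7 CPM in the thymus library, against 407 CPM in the myeloid library, mostly from *krt8*. The thymic epithelial regulator *foxn1* had 0 reads in the thymus library, against 2 in the myeloid library, and *psmb11b* had 2, against 0. The sums thus came almost wholly from *krt4*, *krt5*, *krt8* and *epcam*.

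All 11 factors had a higher CPM in the thymus library, as did 58.9% of the 15139 genes that reached 1 CPM in 1 or both libraries. In RNA from sorted pools, fewer cells of a type and less RNA per cell cannot be told apart. The factors differed in how much signal the myeloid library held. *ets1*, *ikzf1*, *runx1*, *runx3* and *tcf7* had from 73 to 3209 reads in the myeloid library. *bcl11ba*, *myb*, *tox*, *lef1*, *satb1a* and *SATB1* had at most 3 reads there. All 11 were at 1 CPM or more in the thymus library, where 39.8% of all genes counted reached that level. In the myeloid library 5 of the 11 did, beside 33.0% of all genes. A gene was called past the fold where the log2 ratio of CPM + 1, thymus over myeloid, was 2 or more in size. Of the 11 factors, 8 were called higher in the thymus library and 0 lower, while 29.6% of the 15139 genes were called higher, 17.8% lower and 47.4% in either direction. At a fold of 2, 11 factors were higher beside 46.4% of genes, and at a fold of 8, 7 factors beside 18.7%. The median log2 ratio of the 11 was 3.65, and that of all 15139 genes was 0.73. With counts below 3 reads set to 3 and no CPM added, these medians were 4.60 and 0.80. Of the 11, 6 reached 1 CPM only in the thymus library and so could only be higher there. The factors were chosen as T cell genes with these libraries' results known, so these counts describe them and are no test.

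**Figure D1:**
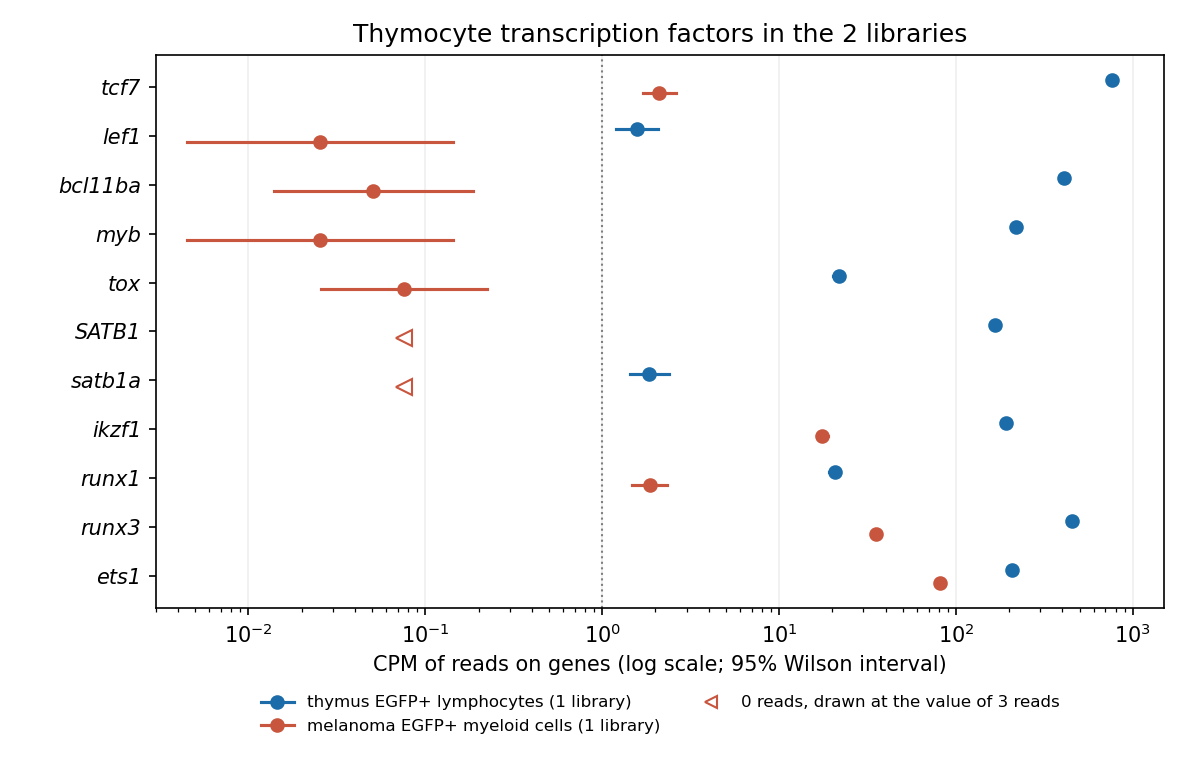
CPM of the 11 factors (log axis) in the thymus lymphocyte library (blue) and the melanoma myeloid library (red), with 95% Wilson intervals of the count and a dotted line at 1 CPM. Every blue point lies to the right of its red one; the 5 genes with red points right of the line are *tcf7*, *ikzf1*, *runx1*, *runx3* and *ets1*, and open triangles mark *SATB1* and *satb1a*, with 0 myeloid reads.

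The commitment factors *bcl11ba* and *tcf7* had the largest log2 ratios of CPM + 1, 8.60 and 7.94. *bcl11ba* (ENSDARG00000062510), the counterpart of the zinc finger repressor that closes off other fates in mouse thymocytes, had 13434 reads or 407 CPM (401 to 414) in the thymus library, against 2 reads or 0.0507 CPM (0.0139 to 0.185) in the myeloid library. This is a ratio of 8035 (2224 to 66355). The wide interval comes from the 2 myeloid reads, and even its lower end is far beyond the fold used for a call. *tcf7* (ENSDARG00000038672), an HMG-box factor downstream of Notch and a partner of β-catenin, had 25042 reads or 759 CPM (750 to 769) in the thymus library, against 83 reads or 2.10 CPM (1.70 to 2.61) in the myeloid library. The ratio was 361 (291 to 453). *tcf7* was thus low but detected in the myeloid library, unlike *bcl11ba*, whose count there did not exceed the 3-read limit.

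*lef1* (ENSDARG00000031894) is the close relative of *tcf7* and overlaps with it in mouse thymocytes. It had 52 reads or 1.58 CPM (1.20 to 2.07) in the thymus library, against 1 read or 0.0254 CPM (0.00448 to 0.144) in the myeloid library. The ratio of 62.2 (10.7 to 2504) rests on that single read. With 1 CPM added to both values the log2 ratio was 1.33, short of a call. *lef1* was close to the 1 CPM threshold in the thymus library and would fall below a threshold of 5 CPM.

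*myb* and *ikzf1* act from the progenitor stage onward. *myb* (ENSDARG00000053666), needed in mice for the survival of CD4 and CD8 double-positive thymocytes, had 7238 reads or 219 CPM (214 to 225) in the thymus library, against 1 read or 0.0254 CPM (0.00448 to 0.144) in the myeloid library. Its ratio was 8658, with a counting interval of 1554 to 342031. *ikzf1* (ENSDARG00000013539), which encodes the zinc finger factor Ikaros of lymphoid and other blood cells, had 6341 reads or 192 CPM (188 to 197) in the thymus library, against 692 reads or 17.5 CPM (16.3 to 18.9) in the myeloid library. That ratio was 10.96 (10.1 to 11.9). Both were called higher in the thymus library, *myb* with next to no reads on the myeloid side and *ikzf1* with 692.

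Both Runx genes were present in both libraries and differed by a similar factor. *runx1* (ENSDARG00000087646) acts in mice at the double-negative stages and in silencing *Cd4*. It had 679 reads or 20.6 CPM (19.1 to 22.2) in the thymus library, against 73 reads or 1.85 CPM (1.47 to 2.33) in the myeloid library, a ratio of 11.1 (8.73 to 14.4). *runx3* (ENSDARG00000052826), which promotes the CD8 fate, had 15008 reads or 455 CPM (448 to 462) in the thymus library, against 1391 reads or 35.3 CPM (33.5 to 37.2) in the myeloid library. The *runx3* ratio was 12.9 (12.2 to 13.6). The *runx1* ratio divided by the *runx3* ratio was 0.862, with an interval of 0.673 to 1.104 that includes equality, so the counts do not separate the pair.

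*ets1* (ENSDARG00000024431), the founding ETS-domain factor, differed least by CPM. It had 6846 reads or 208 CPM (203 to 213) in the thymus library, against 3209 reads or 81.4 CPM (78.6 to 84.2) in the myeloid library. The ratio was 2.55 (2.45 to 2.66), and the log2 ratio of CPM + 1 was 1.34, within the fold. Library sizes set by edgeR's TMM method lowered this log2 ratio to 0.76, when the median of all genes was 0.11. Melanocyte markers, given above, were high in the same library, and their part in the *ets1* level was not tested.

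*tox* and the *satb1* genes are linked in mice to positive selection and to the choice between CD4 and CD8 fates. *tox* (ENSDARG00000032317), an HMG-box factor, had 715 reads or 21.7 CPM (20.2 to 23.3) in the thymus library, against 3 reads or 0.0761 CPM (0.0259 to 0.224) in the myeloid library, a ratio of 285 (97.2 to 1386). *SATB1* (ENSDARG00000062621), the gene listed without a paralog letter and named for a protein that organizes chromatin loops, had 5499 reads or 167 CPM (162 to 171) in the thymus library, against 0 reads in the myeloid library. It was at least 2193-fold higher in the thymus library. *satb1a* (ENSDARG00000057649) had 61 reads or 1.85 CPM (1.44 to 2.38) in the thymus library, against 0 reads in the myeloid library, and was at least 24.3-fold higher. Of the *satb1* reads, nearly all were thus on the gene with the capital symbol, a share not scaled for gene length. *satb1a* itself was not called, at a log2 ratio of 1.51. Summed, the pair was at 169 CPM in the thymus library, against 0 CPM in the myeloid library.

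**Figure D2:**
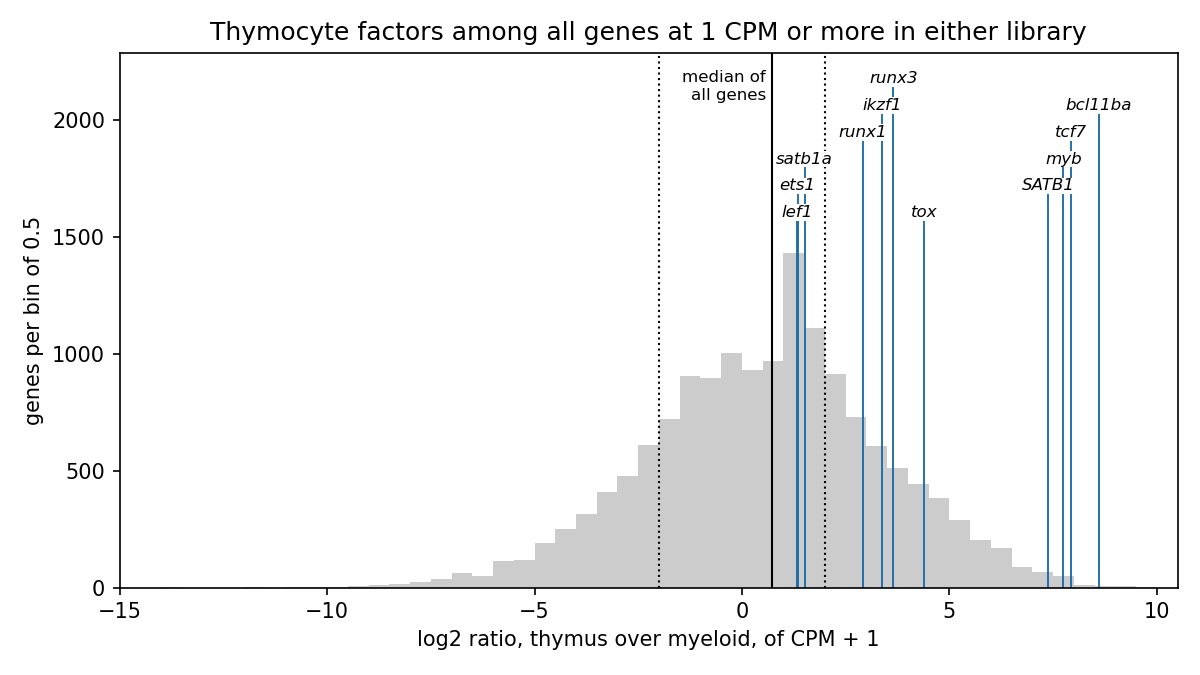
Histogram of the log2 ratio, thymus over myeloid, of CPM + 1 over the 15139 genes compared (gray, bins of 0.5), with the 11 factors as blue lines. Dotted lines mark the fold used for a call and the solid black line the median of all genes, 0.73; *lef1*, *ets1* and *satb1a* lie within the fold, and *SATB1*, *myb*, *tcf7* and *bcl11ba* lie at 7.39 to 8.60.

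The myeloid level of each factor was also expressed as a percentage of its thymus level and set beside the same value for the T cell markers. It was 39.2% (37.6 to 40.9) for *ets1*, 9.12% (8.42 to 9.87) for *ikzf1*, 8.99% (6.96 to 11.45) for *runx1* and 7.75% (7.33 to 8.19) for *runx3*. For *tcf7* it was 0.277% (0.221 to 0.344). The 3-read limit on *lck*, the T cell kinase, is 0.0990% of its thymus level, and the intervals of these 5 factors lie above it. The labels name an *lck* reporter for the thymus cells, and its bearing on this limit was not tested. Among the 8 T cell markers other than *cd8a*, the highest value was 1.70%, for the adaptor *lat*. The intervals of *ets1*, *ikzf1*, *runx1* and *runx3* lie above the intervals of all 8 of these markers, and that of *tcf7* lies below that of *lat*. The interval of *cd247*, which like *lck* had 0 myeloid reads, runs from 0% to 2.85% and includes the *tcf7* value. *cd8a*, whose regulatory sequence drove the reporter used to sort the cells, was at 9.34% (7.89 to 10.99). The recombinase gene *rag2*, which is not in the marker list, was at 15.4% (11.98 to 19.66). Its interval lies above those of *ikzf1*, *runx1* and *runx3*, whereas *rag1* was at 0.0497%. The comparison therefore holds for these 8 markers and not for all genes of T cells. *bcl11ba* was at 0.0124% (0.00151 to 0.0450) and *myb* at 0.0115% (0.000292 to 0.0644), both below the *lck* limit. The intervals of *tox* and *lef1*, with 3 reads and 1 read, include it.

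Counts near 0 in the myeloid library were also found outside T cell genes. Counts of at most 3 myeloid reads were found for 6 of the 11 factors and for 21.4% of the 15139 genes compared. A gene used by all dividing cells was among them: *mcm5*, a subunit of the replicative helicase, had 6789 reads in the thymus library, against 2 in the myeloid library. It was the exception in the proliferation marker list. The other genes of that list had from 1430 myeloid reads, for *mcm2* of the same complex, to 5036, for *ccnb1*.

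Paralogs of the factors were set beside them, family by family. Of 25 paralog symbols, *ikzf3* matched no gene, *satb1b* was already counted as *SATB1*, and *fli1a* and *fli1b* gave the single gene *fli1*, which left 22 genes. Of these, 18 reached 1 CPM in 1 or both libraries; 9 of the 18 were called higher in the thymus library and 0 lower, at a background of 29.6% and 17.8%. Their median log2 ratio was 1.99, or 4.44 with counts below 3 reads set to 3 and no CPM added. *bcl11ab* had 0 reads in both libraries, and *tcf7l2* and *runx2* stayed below 1 CPM in both. *tcf7l2* had 19 reads in the thymus library, against 6 in the myeloid library, and *runx2* had 31, against 0.

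The BCL11 and TOX paralogs with reads had, like the listed members of their families, higher CPM in the thymus library. *bcl11bb*, the second copy of the commitment factor, had 2091 reads or 63.4 CPM in the thymus library, against 0 reads in the myeloid library, at least 834-fold higher. *bcl11a*, which acts in B cell and erythroid development in mice, was at 2.79 CPM in the thymus library, against 1.17 CPM in the myeloid library, a ratio of 2.39 (1.66 to 3.49) that was not called. *tox2* was at 134 and *tox4a* at 45.2 CPM in the thymus library, against 8.62 and 0.203 CPM in the myeloid library, and *tox3*, at 18.7 CPM in the thymus library, had 0 myeloid reads. *tox2*, *tox3* and *tox4a* were called higher, whereas *tox4b*, with 92 reads in the thymus library, against 0 in the myeloid library, was not, at a log2 ratio of 1.92.

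In the IKZF and ETS families a paralog differed more than the listed factor. *ikzf2*, which encodes Helios, had 32213 reads or 977 CPM (966 to 988) in the thymus library, against 930 reads or 23.6 CPM (22.1 to 25.1) in the myeloid library. Its ratio of 41.4 exceeded that of *ikzf1*, and the *ikzf1* ratio divided by the *ikzf2* ratio was 0.265 (0.239 to 0.293). *ikzf5* was at 34.9 CPM in the thymus library, against 35.1 CPM in the myeloid library, a ratio of 0.996 (0.920 to 1.08). *ikzf4* was at 0.607 and 1.09 CPM in the thymus and myeloid libraries. Among ETS genes, *ets2* had 22163 reads or 672 CPM (663 to 681) in the thymus library, against 1984 reads or 50.3 CPM (48.1 to 52.6) in the myeloid library, a ratio of 13.4. The *ets1* ratio divided by the *ets2* ratio was 0.191 (0.179 to 0.203). The blood and endothelial factors *fli1* and *erg* were low, at 3.15 and 1.06 CPM in the thymus library, with 0 reads and 1 read in the myeloid library. *fli1* was called at a log2 ratio of 2.05, but not with TMM or DESeq2 size factors, at 1.84 and 1.86.

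Like the IKZF family with *ikzf4*, the TCF/LEF and RUNX families each held a paralog with the opposite direction. *tcf7l1* (ENSDARG00000038159), whose mouse counterpart represses Wnt targets, was at 15.8 CPM (14.5 to 17.2) in the thymus library, against 47.3 CPM (45.2 to 49.5) in the myeloid library. Its myeloid level was 2.99-fold higher (2.72 to 3.31), within the fold, and it passed the fold with TMM and with DESeq2 size factors, at log2 ratios of −2.08 and −2.04. The other copy, *tcf7l1b*, was at 7.67 CPM in the thymus library, against 0.127 CPM in the myeloid library, and was called in the other direction. *runx2b*, a relative of the bone and cartilage regulator RUNX2, had 8 reads in the thymus library, against 80 reads or 2.03 CPM in the myeloid library, 8.36-fold higher (4.04 to 20.03), although its log2 ratio with 1 CPM added was −1.29. In the MYB family, *mybl2*, a cell cycle factor, had 806 reads in the thymus library, against 1 in the myeloid library, while *mybl2a* had 1167 and 525 and was not called. *mybl1* had 76 reads in the thymus library, against 0 in the myeloid library. Of 8 proliferation genes, 3 were called higher in the thymus library (*mki67*, *mcm2* and *mcm5*) and 2 lower (*ccnb1* and *cdk1*), beside 29.6% and 17.8% of all genes compared. *mki67* was not called with TMM or DESeq2 size factors, at log2 ratios of 1.58 and 1.63. Their sum was 1199.5 CPM in the thymus library, against 512 CPM in the myeloid library. What part cell division had in the MYB family values was not tested.

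**Figure D3:**
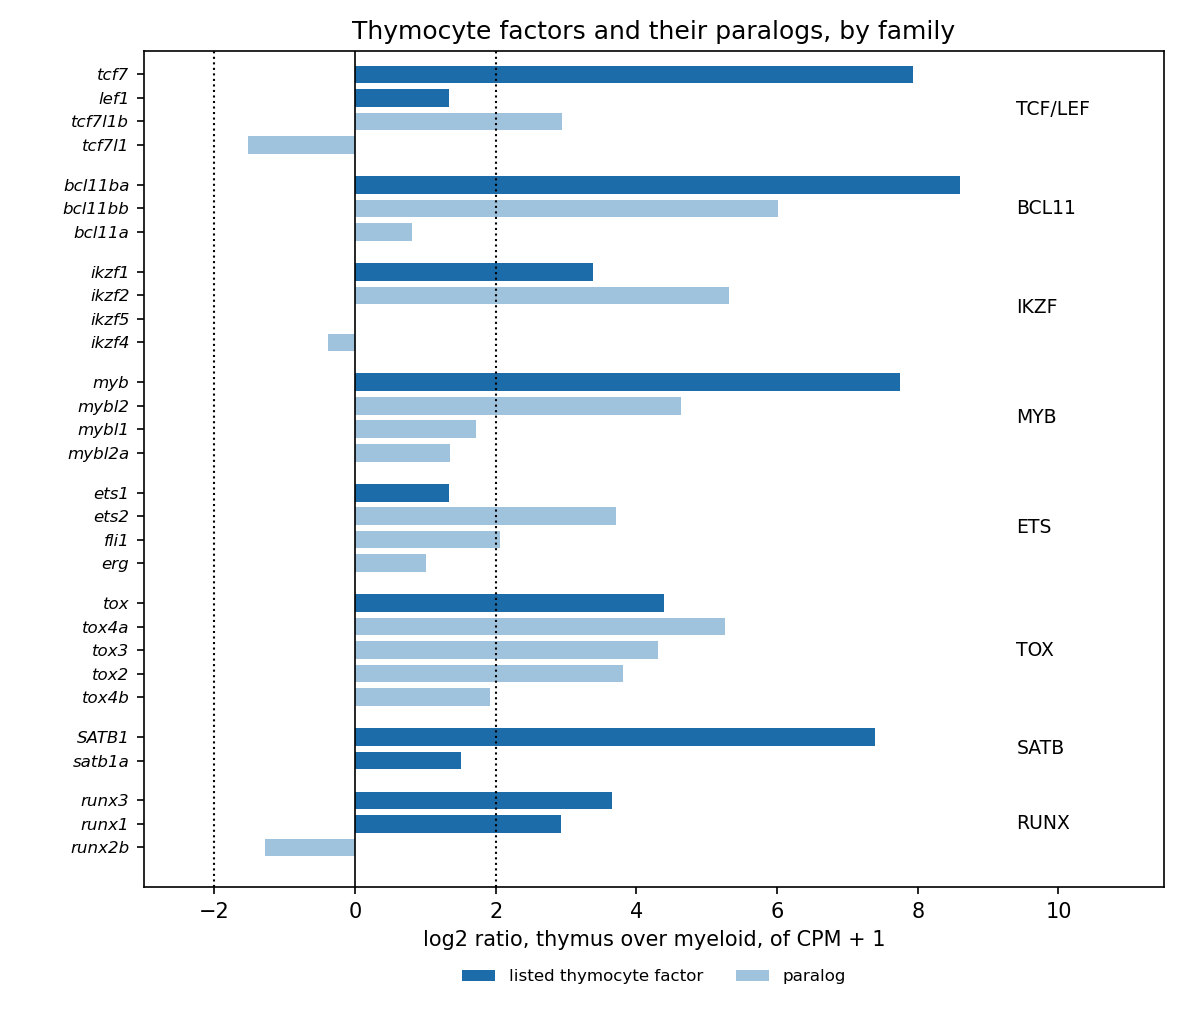
Log2 ratio, thymus over myeloid, of CPM + 1 for the 11 factors (dark bars) and their paralogs that reached 1 CPM (light bars), grouped by family, with dotted lines at the fold used for a call. Bars for *tcf7l1*, *ikzf4* and *runx2b* point to the myeloid side, and *ikzf5* lies at −0.01.

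The cofactors through which these factors act lay on both sides. Of 18 cofactor genes, 17 were compared, of which 7 were called higher in the thymus library and 1 lower, beside 29.6% and 17.8% of all genes compared, with a median log2 ratio of 1.31, or 1.34 with low counts set to 3 reads. *cbfb*, the common partner of all Runx proteins, was at 139 CPM (135 to 143) in the thymus library, against 213 CPM (209 to 218) in the myeloid library, 1.54-fold higher in the myeloid library and within the fold. *hdac1*, a histone deacetylase, was at 876 and 834 CPM in the thymus and myeloid libraries, a log2 ratio of 0.07 whose sign turned under all 3 other scalings, to −0.51 with TMM. *chd4b*, a NuRD remodeler, was at 62.4 and 74.6 CPM in the thymus and myeloid libraries.

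Some copies of the same cofactor gene differed in their calls. Of the acetyltransferase genes listed as *ep300*, ENSDARG00000100666 had 8653 reads or 262 CPM in the thymus library, against 6 reads or 0.152 CPM in the myeloid library, and ENSDARG00000061108, named after its values were seen, was at 58.6 CPM, against 20.4 CPM, and was not called. *chd4* (ENSDARG00000063535) was at 174 CPM in the thymus library, against 6.49 CPM in the myeloid library, unlike *chd4b*. *ctnnb2*, a second β-catenin gene, was at 535 CPM in the thymus library, against 30.6 CPM in the myeloid library, a ratio of 17.5 (16.5 to 18.6). *ctnnb1* was at 165 and 80.1 CPM in the thymus and myeloid libraries, within the fold. Both genes listed as *crebbp* were called higher: ENSDARG00000104609 was at 62.4 CPM in the thymus library, against 1.42 CPM in the myeloid library, and ENSDARG00000112452, named after its values were seen, was at 84.3 CPM, against 18.2 CPM. The call of ENSDARG00000112452 was lost with TMM and with DESeq2 size factors, at log2 ratios of 1.59 and 1.63. How similar these copies are in sequence, and whether reads were split between them, was not examined here. The single cofactor called lower in the thymus library, named after its values were seen, was the corepressor *tle2a*, at 3.28 CPM in the thymus library, against 18.5 CPM in the myeloid library.

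Other regulators of thymocyte development were mixed. Of 39 genes, 36 were compared, of which 18 were called higher in the thymus library and 2 lower, beside 29.6% and 17.8% of all genes compared, with a median log2 ratio of 2.27, or 4.24 with low counts set to 3 reads. *nfatc2*, a calcium-dependent factor downstream of the T cell receptor, had 8905 reads or 270.05 CPM in the thymus library, against 1 read in the myeloid library. *themis*, needed in mice for positive selection, had 5147 reads in the thymus library, against 1 in the myeloid library. It is also among the T cell markers given above. *stat5b*, which relays IL-7 signals, was at 132 CPM in the thymus library, against 0.887 CPM in the myeloid library. *egr3*, induced by receptor signals, was at 108 CPM in the thymus library, against 0.608 CPM in the myeloid library. These 4 genes had the largest log2 ratios of the 36.

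The regulators of the CD4 and CD8 choice were not all called. *gata3*, an early T cell factor that later favors the CD4 fate, was at 55.4 CPM (52.9 to 58.0) in the thymus library, against 16.4 CPM (15.2 to 17.7) in the myeloid library, a ratio of 3.38 (3.09 to 3.70) and a log2 ratio of 1.70. *zbtb7b*, the CD4 lineage factor of mice, had 68 reads in the thymus library, against 0 in the myeloid library, at least 27.1-fold higher but at a log2 ratio of 1.61. *id3*, an inhibitor of E proteins, was at 44.2 and 57.8 CPM, and *zbtb17* at 129 and 154 CPM, in the thymus and myeloid libraries. Their log2 ratios were −0.38 and −0.25. The 2 genes called lower in the thymus library, named after their values were seen, were *egr1*, at 30.7 CPM in the thymus library, against 177 CPM in the myeloid library, and the Notch target *hes1*, at 1.46 CPM, against 27.7 CPM.

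Genes known in mice as targets of these factors, or as products of the stages they control, gave the highest median of the 6 gene lists, a log2 ratio of 4.54, or 6.28 with low counts set to 3 reads. Of 16 genes, 15 were compared, and 13 were called higher in the thymus library and 1 lower, beside 29.6% and 17.8% of all genes compared. This list shares *cd8a*, *cd8b*, *lck*, *zap70*, *cd247* and *cd28* with the T cell markers given above. *zap70* had 7749 and 7 reads, and the IL-7 receptor gene *il7r* 6440 and 4 reads, in the thymus and myeloid libraries. *cd28*, *cd8b* and *lck* had 3478, 2748 and 2534 reads in the thymus library, against 0 in the myeloid library, and the labels name an *lck* reporter for the thymus cells. *cd8a* had a ratio of 10.7 (9.10 to 12.7). Its counting interval overlaps those of *ikzf1*, *runx1* and *runx3*. No ratio of ratios was computed for *cd8a*, so whether it differs from them was not tested. The recombinase genes, which are active while T cell receptor genes are rearranged, differed from each other. *rag1* was at 51.0 CPM in the thymus library with 1 read in the myeloid library, and *rag2* was at 12.98 CPM (11.8 to 14.3) in the thymus library, against 2.003 CPM (1.61 to 2.50) in the myeloid library, a call that was lost with TMM and with DESeq2 size factors, at log2 ratios of 1.75 and 1.79. *cd247*, at 110 reads in the thymus library, against 0 in the myeloid library, also lost its call with both, at 1.90 and 1.91. *bcl2l1*, a survival gene, was at 105 and 135 CPM in the thymus and myeloid libraries, a log2 ratio of −0.36. Of the 2 genes listed as *myc*, ENSDARG00000007241 was called lower in the thymus library, at 43.2 CPM, against 191 CPM in the myeloid library, and the other was called higher, at 131 CPM, against 4.69 CPM; both are named after their values were seen.

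**Figure D4:**
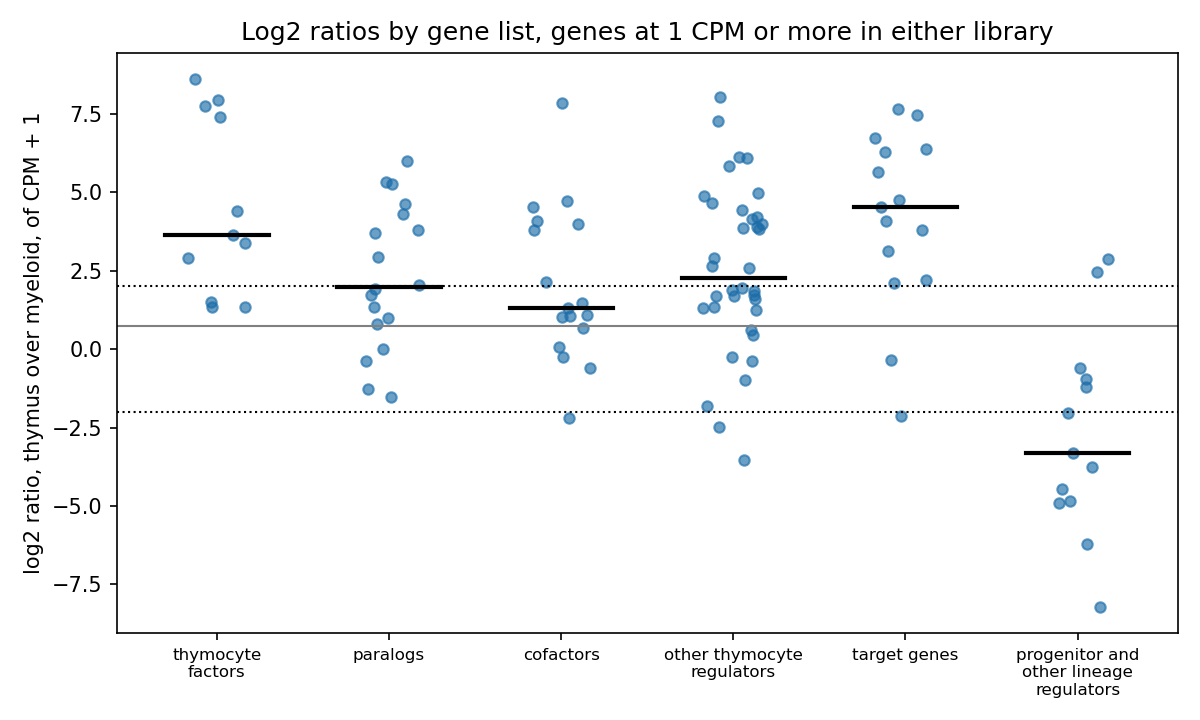
Log2 ratio, thymus over myeloid, of CPM + 1 for each gene compared (points, spread sideways for display) of 6 lists, with list medians as black bars, the median of all genes as a gray line and the fold used for a call as dotted lines. Medians run from 4.54 for the target genes and 3.65 for the 11 factors to −3.31 for regulators of progenitors and other lineages.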

How the data were processed

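The authors sorted EGFP+ cells, prepared cDNA with a low-input SMART-Seq kit and made Nextera XT libraries. They deposited raw counts of reads per Ensembl gene from HTSeq. The submitters' processing notes name cutadapt, STAR 3.0 and GRCz11, whereas the paper's methods name TopHat, another build and FPKM values; counting options are not given in the sources used here. The thymus table also held 5 summary rows for reads on no gene, 28.4% of its reads, which were left out. Whether the count used strand is not stated, so antisense reads cannot be told apart.

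Symbols came from a table of gene names that covers 29201 of the 32520 genes. The listed symbols *ikzf3*, *tle1*, *gfi1ab*, *lyl1*, *cd3e*, *ptcra*, *mpeg1.1*, *mpx* and *hbba1* matched no gene. CPM, 95% Wilson intervals of levels, exact binomial intervals of ratios and log-scale normal intervals of a ratio of ratios were computed in Python 3.11.15 with scipy 1.17.1, and the scripts were tested on simulated data. Genes with 0 reads in one library are bounded at 3 reads. A call is a log2 ratio of CPM + 1 of 2 or more in size, among genes that reached 1 CPM in 1 or both libraries. Alternatives were scalings by edgeR 4.0.16 and DESeq2 1.42.0 in R 4.3.3, a total without the 10 genes with most reads, other pseudocounts, folds, thresholds and filters. Named genes are the 11 factors, paralogs with at least 10 reads, and in each other list the 4 with the largest and the 2 with the smallest log2 ratio by size, with *gata3*, *cbfb*, *zbtb7b*, *cd8a*, *cd8b*, *lck*, *rag1*, *rag2* and *spi1*. *ctnnb1* and genes said to be so were named after their values were seen. A gene that is counted in the lists is not reported here by name. The factors, lists and rule were chosen with earlier results of these data known. Of other marker lists, those of B cells had a sum of 11.46 CPM (thymus), against 31.5 CPM (myeloid), those of neutrophils 506, against 832 CPM, and those of erythroid cells 1.58, against 31.6 CPM.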

Additional observations from a re-analysis of the deposited data

How the results depend on the processing

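No paired analysis was possible because both populations were sequenced once; without replicates, none could be left out in turn and nothing was tested. All 11 factors kept a higher level in the thymus library under TMM, DESeq2 size factors and totals that omit the 10 most abundant genes, and 0 changed their side of the fold. These scalings shifted the median log2 ratio of all genes by 0.61, 0.56 and 0.06. Over all genes, 4476 were called higher in the thymus library and 2698 lower (62.4% of calls higher), against 3754 and 3351 with TMM (52.8%) and 3800 and 3298 with DESeq2 size factors (53.5%). The number of factors past the fold was 8 with each scaling, 10 with a pseudocount of 0.1 CPM, 11 at a fold of 2 and 7 at a fold of 8; for the paralogs it ranged from 7 to 13. The median log2 ratio of the factors, 3.65, moved to 3.08 with TMM and 3.12 with DESeq2 size factors. The median thymus level, 192 CPM, was 157 CPM with TMM, 159.7 CPM with DESeq2 size factors and 207 CPM with the third scaling. At a threshold of 5 CPM, 3 factors in place of 5 were expressed in the myeloid library. Of 34 single ratios, 11 moved beyond their counting interval and 0 reversed. All 11 belonged to *tcf7*, *ikzf1*, *ets1*, *runx1* and *runx3*, each of which moved with TMM and with DESeq2 size factors. The 34 include the sum of the *satb1* pair, which is not a scaling. The ratios of *satb1a* and *SATB1*, with 0 myeloid reads, could not count as moved. Those of *lef1*, *myb*, *bcl11ba* and *tox*, with 1 to 3 myeloid reads, had wide intervals and stayed within them. Low read counts limit the ratios of *lef1*, *satb1a* and every factor with 3 myeloid reads or fewer. No lengths or sequences for these genes were used here.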

Other observations

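Regulators of progenitors and of other blood lineages lay mostly on the myeloid side. Of 22 genes, 13 reached 1 CPM in 1 or both libraries, of which 2 were called higher in the thymus library and 8 lower, beside 29.6% and 17.8% of all genes compared, with a median log2 ratio of −3.31, or −4.96 with counts below 3 reads set to 3 and no CPM added. *spi1*, which drives myeloid fates and is shut off during T cell commitment in mice, had 2 reads in the thymus library, against 12374 reads or 314 CPM in the myeloid library. *meis1* had 4 reads in the thymus library, against 3246 in the myeloid library, *mafb* 15, against 1696, and *gata2* 1, against 1114. This list shares *spi1* with the phagocyte markers, *gata1a* with the erythroid markers and *pax5* with the B cell markers. The melanocyte and phagocyte markers were high in the same library. Their part in these values was not tested.

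Some genes of the list were within the fold or lay on the thymus side. *cebpa*, a myeloid factor, had 7517 reads or 228 CPM (223 to 233) in the thymus library, against 17238 reads or 437 CPM (431 to 444) in the myeloid library, and *batf3* was at 4.03 CPM, against 6.59 CPM. Both were higher in the myeloid library and not called, at log2 ratios of −0.94 and −0.59. *cebpb*, named after its values were seen, was called higher in the thymus library, at 963 CPM (953 to 974), against 173 CPM (169 to 177) in the myeloid library, a ratio of 5.57 (5.43 to 5.72). Its log2 ratio was within the fold with TMM, at 1.89, and with DESeq2 size factors, at 1.94. The other gene of the list called higher in the thymus library, likewise named afterwards, was *zbtb16*, the factor of innate-like T cells in mice, at 114 CPM, against 14.9 CPM. Phagocyte markers other than *lgmn* were below 1 CPM in the thymus library, where *c1qa*, *c1qb* and *c1qc* had 0 reads. Of 6 neutrophil genes, 3 were at 1 CPM or more there. Among them *mmp9* was at 132 CPM and a *lect2* gene (ENSDARG00000090889) at 373 CPM, while *lyz* and *mmp13a* had 0 reads. What part other cells had in the *cebpa* and *cebpb* values was not tested.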
